A study of Mus musculus with 18 samples.

Results

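The 10 genes Fgf4, Fgf5, Fgf15, Fgfr1, Fgfr2, Spry2, Spry4, Dusp6, Etv4 and Etv5 encode fibroblast growth factor (FGF) ligands, their receptors, inhibitors that damp the pathway and transcription factors that it switches on. They were taken by gene symbol from count tables that list 53672 genes, and 9 of them were among the 18791 genes that passed the filter on low counts. Fgf5 did not pass. RNA had been sequenced from mouse embryonic stem cells (ESCs) of the E14TG2a line, in which both alleles of Hdac1 and Hdac2 are flanked by lox sites and can be deleted by adding 4-hydroxytamoxifen (OHT). HDAC1 and HDAC2 are the catalytic subunits of several co-repressor complexes. Each of 3 rescue lines stably expressed an HDAC1 transgene, which was wild type (HDAC1-WT) or carried the E63R (HDAC1-E63R) or the Y48E (HDAC1-Y48E) substitution on the surface that contacts complex partners. Each line was sampled untreated and after 1 µM OHT, which gave 6 groups of 3 libraries. The sample labels give 5 days for both arms, and the study's methods describe 24 h in OHT followed by further culture. Untreated cells carried the transgene on top of their endogenous Hdac1 and Hdac2, all cells grew in serum with leukaemia inhibitory factor, and 1 line stood for each construct, so that construct and line cannot be told apart.

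FGF ligands bind receptor tyrosine kinases, which recruit adaptors and activate RAS, RAF, MEK and finally the kinase ERK. FGF4, made by ESCs themselves, is the best known source of ERK activity in these cells and primes them to leave the naive state. Active ERK raises Spry2, Spry4 and Dusp6, whose products inhibit the same pathway, and Etv4 and Etv5, which encode transcription factors of the ETS family, so these transcripts are often read as a record of pathway activity.

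After OHT the 10 genes did not move together. In both mutant lines the ligand genes Fgf4 and Fgf15 fell, more so in HDAC1-Y48E, while the receptor gene Fgfr2 and the inhibitor genes Spry2, Spry4 and Dusp6 rose. Fgfr1 and Etv4 differed between untreated lines and no OHT effect on them passed the test, and Etv5 fell in HDAC1-Y48E alone of the 3 lines. In HDAC1-WT no member passed the test, although Spry4 was called there when the filter on low counts was left out. For Spry4 and Dusp6 the OHT effect of neither mutant line passed a test against that of HDAC1-WT. For Spry2 and Fgf15 that of HDAC1-E63R did not pass. A gene was called when its adjusted p was under 0.01 and its change over 2-fold, in an edgeR quasi-likelihood test with Benjamini-Hochberg adjustment over all 18791 genes. In HDAC1-WT 0 of 9 tested members were called, against 0.0373% of all tested genes called as higher and 0.016% as lower. The adjusted p alone was passed by 0 members, against 0.0585% of all genes. An unadjusted p under 0.05 was found for 2 of the 9 tested members and for 1852 of all 18791 tested genes. In HDAC1-E63R 3 members were called as higher (all genes 4.74%) and 1 as lower (1.18%), and 6 passed the adjusted p alone (14.3%). In HDAC1-Y48E 3 members were called as higher (10.8%) and 2 as lower (5.84%), and 7 passed the adjusted p alone (30.9%). The median log2 fold change of the 9 members was 0.19 in HDAC1-WT, 0.40 in HDAC1-E63R and 0.23 in HDAC1-Y48E, beside 0.00, 0.03 and 0.05 over all tested genes.

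Promoter sequence, credited to RefSeq on build GRCm38.p6, was used for 6 of the 10 genes, and 4 of these passed the adjusted p in both mutant lines. Their windows of 300 bases, from 250 before to 50 after the annotated start, are shown 5′ to 3′ on the gene's own strand for that reason. Fgf15 and Spry4 also passed in both lines, and no window was used for them. Fgf4 lies at chr7:144861136-144861435 on the plus strand, Fgfr2 at chr7:130266759-130267058 on the minus strand, Spry2 at chr14:105896770-105897069 on the minus strand and Dusp6 at chr10:99262981-99263280 on the plus strand. Capitals mark matches, on either strand, to 3 sets of letters that were searched. They were CCGGAA, a sequence bound by ETS factors and called the ETS core here, GGGCGG, the GC box, and TATAAA, the TATA box. GGAA next to other letters, which also occurs in these windows, was not searched for.
Fgf4: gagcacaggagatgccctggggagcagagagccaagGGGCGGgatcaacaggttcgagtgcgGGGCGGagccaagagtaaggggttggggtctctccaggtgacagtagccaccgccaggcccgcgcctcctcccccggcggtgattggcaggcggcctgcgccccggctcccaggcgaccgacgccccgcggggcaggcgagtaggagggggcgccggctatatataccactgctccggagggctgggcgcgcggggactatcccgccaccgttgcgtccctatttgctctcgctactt
Fgfr2: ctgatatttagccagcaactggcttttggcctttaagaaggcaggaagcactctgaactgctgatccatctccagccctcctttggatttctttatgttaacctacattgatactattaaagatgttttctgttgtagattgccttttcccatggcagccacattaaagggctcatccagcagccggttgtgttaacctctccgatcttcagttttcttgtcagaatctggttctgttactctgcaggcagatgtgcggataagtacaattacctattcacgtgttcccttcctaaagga
Spry2: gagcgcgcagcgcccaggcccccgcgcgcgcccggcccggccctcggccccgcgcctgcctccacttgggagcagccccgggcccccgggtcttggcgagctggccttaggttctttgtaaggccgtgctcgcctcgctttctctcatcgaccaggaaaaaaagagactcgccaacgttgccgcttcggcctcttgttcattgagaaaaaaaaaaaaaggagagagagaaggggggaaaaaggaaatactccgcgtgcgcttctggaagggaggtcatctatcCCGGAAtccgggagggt
Dusp6: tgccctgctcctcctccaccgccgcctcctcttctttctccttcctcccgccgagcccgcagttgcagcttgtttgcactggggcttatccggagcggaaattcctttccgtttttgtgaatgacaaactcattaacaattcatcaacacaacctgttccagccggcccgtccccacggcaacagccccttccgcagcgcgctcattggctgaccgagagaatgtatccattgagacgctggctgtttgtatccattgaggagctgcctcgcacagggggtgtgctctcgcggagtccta
The falling gene Fgf4 had 2 GC boxes and no ETS core, and the rising gene Spry2 had 1 ETS core and no GC box. Fgfr2 and Dusp6 had no match to any of the 3. No marked match overlapped another. Among all 32851 promoter windows of this length 14.9% held an ETS core, 35.7% a GC box and 13.6% a TATA box, and the matches are descriptions of these windows. Of the genes not printed, Etv5 had 3 GC boxes in 1 of its 2 windows and Fgf5 had 1 match to each of the 3.

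The libraries held between 9019615 and 11454638 counts on genes. Hdac1 and Hdac2, the deleted genes, were not called with OHT in any line, and a count per gene cannot separate an intact transcript from that of a deleted allele or of a transgene. Hdac2 was at 195 ± 23 CPM (counts scaled with TMM factors to libraries of 1000000) in untreated HDAC1-WT and 123 ± 10 after OHT (SD, n = 3 each; log2 fold change -0.66, adjusted p = 0.0125), and its log2 fold change was -0.21 in HDAC1-E63R and -0.07 in HDAC1-Y48E. HDAC1-E63R untreated replicate 3 stood apart: 53.5% of tested genes differed from the other replicates of its group by more than 0.5 on the log2 scale, against 18.1% to 36.8% in the other 17 libraries. The 5 ESC markers Pou5f1, Sox2, Nanog, Esrrb and Zfp42 were present in all groups. A fall in a transcript of these bulk samples cannot tell fewer cells of a type from less RNA per cell.

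Spry4, Spry2 and Dusp6 also singled out HDAC1-WT OHT replicate 3. Compared with the mean of the other 2 libraries of its group, this library was higher by 1.27 on the log2 scale for Spry4, 0.83 for Spry2 and 0.71 for Dusp6, for each gene the highest value of the 18 libraries, and lower for Fgfr1 (-0.38). For Etv4 (0.46) and Etv5 (0.26) it lay within the range of the other libraries. Over all tested genes it was ordinary, with 23.0% of genes beyond 0.5. HDAC1-Y48E untreated replicate 1 was lower by 1.06 for Dusp6 and higher by 0.48 for Spry2. Without HDAC1-E63R untreated replicate 3 the log2 fold changes of OHT in HDAC1-E63R were -1.23 for Fgf4, -0.95 for Fgf15, 2.03 for Fgfr2, 0.84 for Spry2, 1.13 for Spry4 and 1.05 for Dusp6, and the same 4 members were called. Against untreated HDAC1-WT the values without it were -1.93 for Fgf15, 1.99 for Spry4, 1.73 for Etv4 and 1.00 for Dusp6, which then also passed the 2-fold limit.

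**Figure D1:**
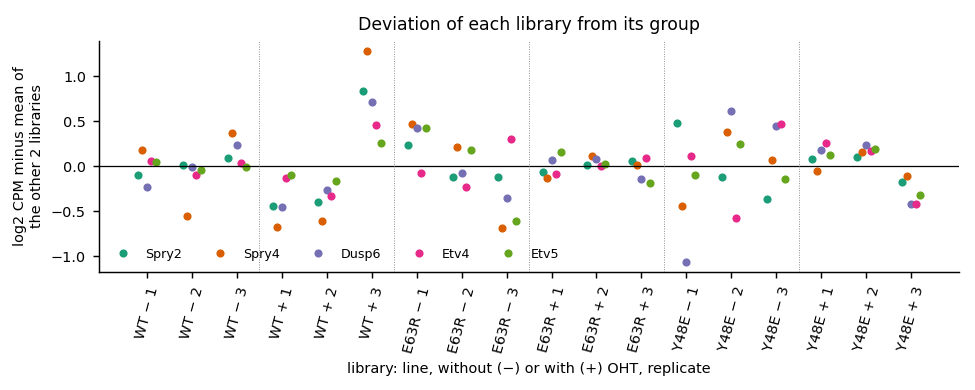
Deviation of each of the 18 libraries (horizontal axis: rescue line, − untreated or + OHT, replicate) from the mean of the other 2 libraries of its group, in log2 CPM, for the 3 feedback inhibitors and 2 ETS genes. All 5 points lie above 0 in WT + 3, in Y48E + 2 and, some of them barely, in E63R + 2. Spry4 in WT + 3 is the highest point at 1.27, and the lowest point is Dusp6 in Y48E − 1.

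Fgf4, of the 10 genes the one with the highest level per length in untreated HDAC1-WT, was high before deletion in every line and fell most in HDAC1-Y48E. Its levels were 339, 329 and 352 CPM in untreated HDAC1-WT and 293, 289 and 283 after OHT. In HDAC1-E63R they were 311, 282 and 315 untreated and 129, 122 and 128 after OHT. In HDAC1-Y48E they were 345, 376 and 372 untreated and 41.3, 46.8 and 42.4 after OHT. The untreated and OHT libraries did not overlap in any of the 3 lines, and the 3 lines separated cleanly after OHT. In order of mean level HDAC1-Y48E untreated (364) overlapped HDAC1-WT untreated (340), HDAC1-E63R untreated (303) overlapped HDAC1-WT OHT (288), and HDAC1-E63R OHT (126) and HDAC1-Y48E OHT (43.5) stood below all others. The 2.39-fold fall in HDAC1-E63R and the 8.37-fold fall in HDAC1-Y48E had adjusted p of 2.51e-09 and 9.79e-16 in edgeR's test, and the 1.18-fold lower mean in HDAC1-WT did not pass (adjusted p = 0.303). The OHT effect minus that in HDAC1-WT was -1.02 ± 0.12 (SE) on the log2 scale in HDAC1-E63R (adjusted p = 2.06e-05) and -2.83 ± 0.13 in HDAC1-Y48E (2.31e-12), and the effect in HDAC1-Y48E minus that in HDAC1-E63R was -1.81 ± 0.12 (1.02e-08).

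Fgf15, the mouse counterpart of human FGF19, differed between the lines already before OHT and then fell further in both mutants. It was at 43.2, 50.8 and 45.6 CPM in untreated HDAC1-WT and 46.6, 46.2 and 51.1 after OHT, so these groups overlapped. In HDAC1-E63R it was at 13.5, 10.7 and 13.5 untreated and at 7.44, 6.28 and 5.08 after OHT. In HDAC1-Y48E it was at 13.8, 20.1 and 12.5 untreated and at 2.00, 2.54 and 1.80 after OHT, which rests on 20, 28 and 20 counts. Before deletion Fgf15 was thus 3.70-fold lower in HDAC1-E63R (log2 -1.89 ± 0.18, adjusted p = 9.44e-08) and 3.01-fold lower in HDAC1-Y48E (-1.59 ± 0.18, 1.12e-06) than in HDAC1-WT. OHT lowered it by 2.86 ± 0.22 on the log2 scale in HDAC1-Y48E (1.27e-09) and by 1.00 ± 0.20 in HDAC1-E63R (7.29e-04), which lay just inside the 2-fold limit and so was not called. Without HDAC1-E63R untreated replicate 2 or OHT replicate 1 the fall in HDAC1-E63R was beyond 2-fold (-1.10 and -1.14). The effect in HDAC1-Y48E minus that in HDAC1-WT was -2.91 ± 0.28 (1.33e-07), and minus that in HDAC1-E63R it was -1.87 ± 0.30 (4.75e-04). The effect in HDAC1-E63R did not pass against HDAC1-WT (-1.04 ± 0.26, 0.0178), but did without HDAC1-E63R untreated replicate 2 (-1.14, 0.00897) or replicate 3 (-0.99, 0.00674). Of the Fgf15 exons 27.9% are shared with Gm26793 and Gm39119 on the opposite strand, and whether the counting used strand is not given in the sources used here.

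Fgf4 and Fgf15 are neighbours on chromosome 7 (RefSeq, GRCm38.p6), 31.3 kb apart, with Fgf3 18 kb before Fgf4. Fgf3, named here after its values were seen, was low: its lowest, median and highest levels were 1.82, 5.70 and 6.37 CPM in untreated HDAC1-Y48E and 1.26, 1.36 and 1.5 after OHT. Its log2 fold change of -1.75 in HDAC1-Y48E did not pass (adjusted p = 0.0148), nor did those in HDAC1-E63R (-0.49, 0.576) and HDAC1-WT (-0.09, 0.986).

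Fgf5, a ligand gene switched on when naive cells pass to the primed state, was close to absent throughout. Its counts were 12, 0 and 0 in untreated HDAC1-WT, 0, 9 and 3 after OHT, 2, 4 and 0 in untreated HDAC1-E63R, and 5, 0 and 0 in HDAC1-Y48E after OHT. All 3 libraries of HDAC1-E63R after OHT and of untreated HDAC1-Y48E were at 0. A count of 0 allows up to 3 counts, or between 0.248 and 0.343 CPM, by counting error alone. Without the filter on low counts its lowest adjusted p in the 8 comparisons was 0.167, so no difference was detectable at this depth.

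The receptor genes divided. Fgfr1, which encodes the main FGF4 receptor of ESCs, differed between the lines, and no OHT effect on it passed the test. It was at 120, 123 and 123 CPM in untreated HDAC1-WT and 138, 131 and 104 after OHT, at 226, 217 and 174 and then 189, 172 and 197 in HDAC1-E63R, and at 57.0, 59.6 and 65.0 and then 69.9, 55.5 and 61.5 in HDAC1-Y48E. No library of any line entered the range of another line, while untreated and OHT libraries overlapped within every line. Untreated HDAC1-Y48E was 2.02-fold lower than untreated HDAC1-WT (log2 -1.01 ± 0.12, adjusted p = 3.42e-06; -0.998, -0.970 and -0.999, inside the 2-fold limit, without HDAC1-WT untreated replicate 2 or HDAC1-Y48E untreated replicate 1 or 2) and untreated HDAC1-E63R 1.69-fold higher (0.75 ± 0.12, 6.65e-05). The OHT effect was 0.03 ± 0.12 in HDAC1-WT, -0.15 ± 0.12 in HDAC1-E63R and 0.04 ± 0.12 in HDAC1-Y48E. Its exons share 3.14% with Gm16159 on the opposite strand.

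Fgfr2, the receptor gene that rose, reached overlapping levels in both mutants after OHT. Its levels were 5.85, 4.34 and 3.20 CPM in untreated HDAC1-WT and 4.71, 5.25 and 5.38 after OHT. They were 5.35, 7.44 and 6.51, then 26.0, 31.4 and 20.8 after OHT, in HDAC1-E63R. They were 9.12, 8.07 and 10.5, then 33.1, 22.8 and 27.6, in HDAC1-Y48E. The OHT libraries of the mutants overlapped each other and lay above all 12 other libraries. The fitted rise was 4.06-fold in HDAC1-E63R (adjusted p = 1.41e-06) and 3.00-fold in HDAC1-Y48E (4.98e-06), and it exceeded that of HDAC1-WT by 1.83 ± 0.33 (0.00174) and 1.39 ± 0.33 (0.00379) on the log2 scale, while the mutants did not pass against each other (-0.43 ± 0.31, 0.507). Untreated HDAC1-Y48E was already 2.06-fold above untreated HDAC1-WT (adjusted p = 0.00285), which missed the limit without HDAC1-WT untreated replicate 2 (0.0138) or 3 (0.0236) or HDAC1-Y48E untreated replicate 3 (0.0188). Both differences from HDAC1-WT depended on single libraries: without HDAC1-WT untreated replicate 1, that for HDAC1-Y48E was 1.15 (0.0214) and that for HDAC1-E63R 1.59 (0.0105), and that for HDAC1-Y48E also missed 0.01 without HDAC1-WT OHT replicate 1 (0.0117), HDAC1-Y48E untreated replicate 2 (0.0124) or HDAC1-Y48E OHT replicate 1 (0.0148). Of the Fgfr2 exons 6.14% are shared with Ctbp2 on the same strand. Per length (CPM per kilobase of exon, RPKM), Fgfr1 and Fgfr2 stood at 23.4 ± 0.37 and 0.87 ± 0.26 in untreated HDAC1-WT and at 12.0 ± 1.4 and 5.44 ± 1.0 in HDAC1-Y48E after OHT (SD, n = 3).

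**Figure D2:**
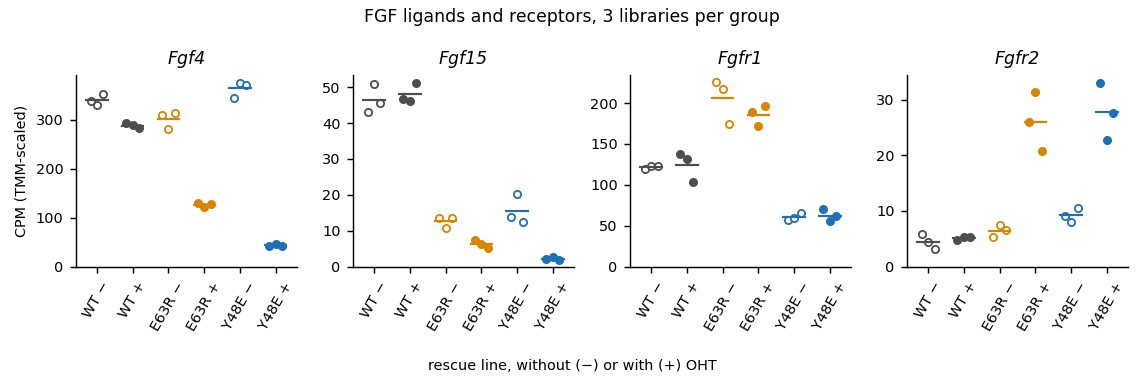
Levels of Fgf4, Fgf15, Fgfr1 and Fgfr2 in CPM (vertical axes start at 0) in 3 rescue lines without (−, open) and with (+, filled) OHT, each point a library and each bar the mean of 3. Fgf4 and Fgf15 are lowest in Y48E +, Fgfr2 is highest in both mutants with OHT, and Fgfr1 separates by line.

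Spry2, Spry4 and Dusp6, the feedback inhibitor genes, were higher after OHT in both mutant lines, without overlap. Sprouty proteins act upstream of RAF, and the DUSP6 phosphatase removes the activating phosphates from ERK. Spry2 was at 29.1, 30.6 and 31.8 CPM in untreated HDAC1-WT and 28.9, 29.5 and 52.2 after OHT. In HDAC1-E63R it was at 49.1, 41.5 and 41.7 untreated and 79.2, 82.1 and 83.7 after OHT. In HDAC1-Y48E it was at 47.4, 35.9 and 31.9 and then 136, 137 and 121, the highest of all groups. It rose by 0.89 ± 0.17 on the log2 scale in HDAC1-E63R (adjusted p = 7.25e-04, under the 2-fold limit) and 1.77 ± 0.18 in HDAC1-Y48E (5.37e-08). The rise in HDAC1-Y48E exceeded that in HDAC1-WT by 1.50 ± 0.25 (1.45e-04). That in HDAC1-E63R did not pass against HDAC1-WT (0.61 ± 0.25, 0.161), but without HDAC1-WT OHT replicate 3 it was 0.95 (0.00707), and the log2 fold change of Spry2 in HDAC1-WT went from 0.28 to -0.06. The mutants did not pass against each other (0.88 ± 0.25, 0.0371), but did without HDAC1-E63R untreated replicate 3 (0.92, 0.00101) or without the filter on low counts (0.88, 0.00145).

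Spry4 rose in both mutant lines, and no difference between lines in the OHT effect passed the test. Its levels were 10.2, 7.24 and 11.2 CPM in untreated HDAC1-WT and 13.9, 14.4 and 34.6 after OHT. They were 39.9, 35.4 and 23.3 and then 77.8, 87.3 and 83.0 in HDAC1-E63R, and 14.4, 21.2 and 18.3 and then 39.5, 43.7 and 38.5 in HDAC1-Y48E. Untreated and OHT libraries did not overlap in any line, although HDAC1-WT OHT replicate 3 was more than 2-fold above the other libraries of its group. The log2 fold change was 1.33 ± 0.25 in HDAC1-E63R (5.41e-04), 1.18 ± 0.26 in HDAC1-Y48E (9.66e-04) and 1.14 ± 0.28 in HDAC1-WT, which did not pass (0.0861). Without the filter on low counts Spry4 was called in HDAC1-WT too (1.14, adjusted p = 1.31e-06), and without HDAC1-WT OHT replicate 3 its value there was 0.57. The difference in effect from HDAC1-WT was 0.19 ± 0.37 for HDAC1-E63R and 0.04 ± 0.39 for HDAC1-Y48E. Without HDAC1-WT OHT replicate 3 it was 0.76 and 0.60, neither of which passed. Before deletion Spry4 was 3.45-fold higher in HDAC1-E63R than in HDAC1-WT (adjusted p = 4.07e-05), and the 1.88-fold higher mean in HDAC1-Y48E did not pass (0.0233).

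Dusp6 was at 12.3, 13.6 and 15.3 CPM in untreated HDAC1-WT and 14.2, 15.6 and 24.5 after OHT, which overlapped. It was at 30.4, 24.1 and 21.2 and then 58.4, 58.5 and 52.9 in HDAC1-E63R. It was at 10.4, 22.9 and 21.1 and then 38.0, 39.1 and 28.8 in HDAC1-Y48E. HDAC1-E63R after OHT lay above every other group, as it did for Spry4. Dusp6 rose by 1.16 ± 0.23 on the log2 scale in HDAC1-E63R (6.87e-04) and 0.96 ± 0.23 in HDAC1-Y48E (0.00194, just under the 2-fold limit), and the value in HDAC1-WT was 0.40 ± 0.24 (0.630), or 0.12 without HDAC1-WT OHT replicate 3. Differences between lines in the effect did not pass, at 0.76 ± 0.33 for HDAC1-E63R (0.190) and 0.56 ± 0.33 for HDAC1-Y48E (0.248) against HDAC1-WT. Without HDAC1-WT OHT replicate 3 they were 1.04 and 0.84 and did not pass, and without HDAC1-Y48E untreated replicate 1 the value for HDAC1-Y48E was 0.28. In HDAC1-Y48E the value was 0.68 without untreated replicate 1, the library with the low Dusp6, and it was beyond 2-fold without untreated replicate 2 (1.16) or 3 (1.08) or OHT replicate 3 (1.09). Untreated HDAC1-E63R was 1.85-fold above untreated HDAC1-WT (0.00735).

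The ETS genes behaved unlike the inhibitor genes and unlike each other. Etv4 was at 22.6, 21.0 and 22.3 CPM in untreated HDAC1-WT and 21.8, 19.8 and 28.8 after OHT, and at 24.7, 18 and 29.1 and then 31.4, 30.1 and 22.9 in HDAC1-Y48E. In HDAC1-E63R it was at 75.3, 70.2 and 89.3 untreated and 82.3, 85.8 and 89.4 after OHT, above every library of the other lines. Untreated HDAC1-E63R was 3.56-fold above untreated HDAC1-WT (log2 1.83 ± 0.17, adjusted p = 4.81e-08; 1.73 without its replicate 3). The OHT effect was 0.10 ± 0.17 in HDAC1-WT, 0.13 ± 0.16 in HDAC1-E63R and 0.23 ± 0.17 in HDAC1-Y48E, with overlap in each line.

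Etv5, after Fgf4 the member with the highest level per length in untreated HDAC1-WT, was at 221, 213 and 216 CPM there and 237, 229 and 279 after OHT. It was at 185, 165 and 114 and then 220, 207 and 187 in HDAC1-E63R, a log2 difference of 0.40 ± 0.14 that did not pass (adjusted p = 0.0376) and was 0.22 without untreated replicate 3. It was at 165, 194 and 162 and then 107, 109 and 86.8 in HDAC1-Y48E, where it fell by 0.78 ± 0.14 on the log2 scale (1.14e-04). The effect in HDAC1-Y48E minus that in HDAC1-WT was -0.98 ± 0.20 (9.40e-04), and minus that in HDAC1-E63R it was -1.18 ± 0.20 (7.12e-04). In HDAC1-Y48E, Etv5 thus went down with OHT where Spry2, Spry4 and Dusp6 went up.

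**Figure D3:**
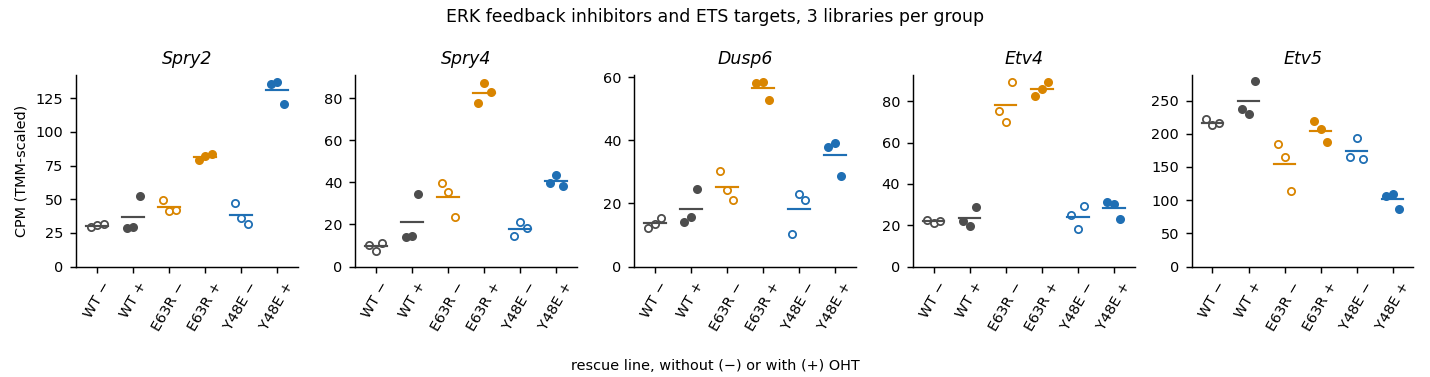
Levels of Spry2, Spry4, Dusp6, Etv4 and Etv5 in CPM (vertical axes start at 0) in 3 rescue lines without (−, open) and with (+, filled) OHT, each point a library and each bar the mean of 3. The 3 inhibitor genes are higher with OHT in both mutants, Etv4 is high in E63R whatever the treatment, and Etv5 is lowest in Y48E +.

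The difference between OHT effects passed an adjusted p of 0.01 for 5 members between HDAC1-Y48E and HDAC1-WT (2 higher, 3 lower; all genes 12.6%), for 2 between HDAC1-E63R and HDAC1-WT (2.45%) and for 3 between HDAC1-Y48E and HDAC1-E63R (all lower; 1.95%). The comparisons with HDAC1-WT share its libraries. Among untreated lines 3 members were called in HDAC1-Y48E against HDAC1-WT (Fgf15 and Fgfr1 lower, Fgfr2 higher; all genes 5.57%) and 3 in HDAC1-E63R against HDAC1-WT (Spry4 and Etv4 higher, Fgf15 lower; all genes 7.65%), again with the same HDAC1-WT libraries in both. Members thus differed between lines that still had endogenous Hdac1 and Hdac2.

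**Figure D4:**
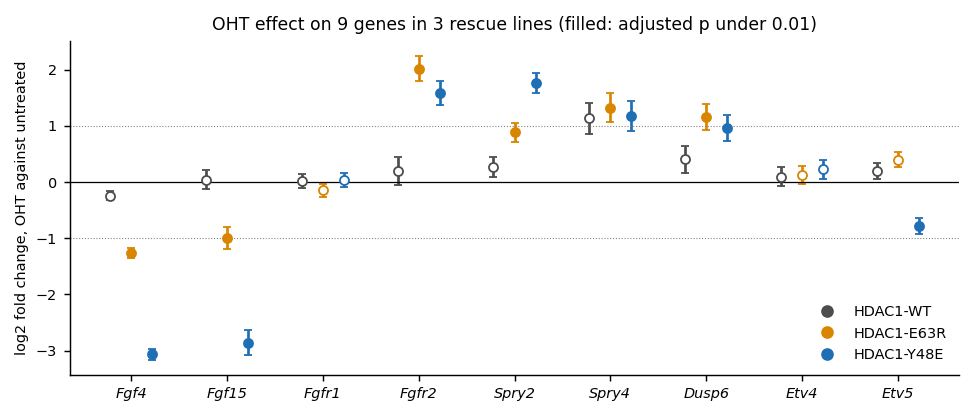
Log2 fold change of OHT against untreated (vertical axis) for the 9 tested genes in HDAC1-WT, HDAC1-E63R and HDAC1-Y48E, with bars of 1 standard error and filled points where the adjusted p was under 0.01; dotted lines mark a 2-fold change. The points of Fgf4 and Fgf15 lie lower from WT to E63R to Y48E, and Etv5 is below 0 only in Y48E.

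Set in order of level per length in untreated HDAC1-WT, Fgf4 had 112 ± 3.7 RPKM, Etv5 53.8 ± 1.1, Fgf15 25.7 ± 2.1, Fgfr1 23.4 ± 0.37, Spry2 14.6 ± 0.64, Etv4 9.14 ± 0.35, Dusp6 4.90 ± 0.54, Spry4 2.01 ± 0.43 and Fgfr2 0.87 ± 0.26. In HDAC1-Y48E after OHT this order had changed, with Spry2 first at 62.9 ± 4.5, Etv5 at 25.1 ± 3.1 and Fgf4 at 14.4 ± 0.96, while Fgf15 was at 1.17 ± 0.21. In HDAC1-E63R after OHT Etv5 (50.7 ± 4.1), Fgf4 (41.7 ± 1.3) and Spry2 (39.1 ± 1.1) led.

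How Spry2 varied with the other inhibitor genes within groups depended on HDAC1-WT OHT replicate 3. After each group's mean was removed, log2 levels of Spry4 and Dusp6 had a Pearson r of 0.74 over the 18 libraries and 0.65 without both HDAC1-WT OHT replicate 3 and HDAC1-E63R untreated replicate 3. For Spry4 and Etv5 these values were 0.67 and 0.40, for Dusp6 and Etv5 0.60 and 0.54, for Spry2 and Spry4 0.60 and -0.26, and for Spry2 and Dusp6 0.20 and -0.47. All 3 pairs of inhibitor genes had a positive value over the 18 libraries, and Spry4 and Dusp6 alone kept one without these libraries. With only HDAC1-WT OHT replicate 3 left out, the values were 0.65 for Spry4 and Dusp6, -0.07 for Spry2 and Spry4 and -0.39 for Spry2 and Dusp6. The libraries of a group share culture and processing, so the values are descriptions.

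The genes whose log2 levels over the 18 libraries were most like a member's, among 10720 with a mean of at least 10 CPM, were Scpep1 (r = 0.993), Tle3 (0.988) and Csnk1a1 (0.986) for Fgf4. For Fgfr2 they were Nnat (0.963), Ankrd27 (0.955) and Cacna1b (0.952). For Dusp6 they were Ctbp2 (0.932), Gm26582 (0.931) and Ddx21 (0.927), and for Etv4 Cnp (0.946), Cops2 (0.934) and Snrpb (0.917). The libraries fall into 6 groups, so these values mostly rank genes by their group means.

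Of 55 other genes of the pathway, from ligands to ERK targets, 48 were tested. In HDAC1-WT 0 were called after OHT in edgeR's test. There 8 of the 48 had an unadjusted p under 0.05, beside 1852 of all 18791 tested genes. In HDAC1-E63R 6 were called as higher and 1 as lower, and in HDAC1-Y48E 6 as higher and 3 as lower, beside the shares of all genes given above. Among the 10 other ligand genes tested Fgf1 rose and Fgf17 fell in both mutants. Fgf1 was at 5.38, 6.81 and 8.53 CPM in untreated HDAC1-Y48E and 56.1, 61.8 and 62.4 after OHT (lowest, median and highest; log2 3.12 ± 0.27, adjusted p = 5.71e-09), and its rise in HDAC1-E63R was 1.34 ± 0.26 (5.93e-04). Fgf17 was at 15.0, 18.4 and 19.7 CPM in untreated HDAC1-Y48E and 1.62, 1.9 and 1.99 after OHT (-3.26 ± 0.29, 7.59e-09), and it fell by 1.30 ± 0.25 in HDAC1-E63R (5.41e-04). Fgf10 fell in HDAC1-Y48E from 2.20, 2.73 and 3.66 CPM to 0.00, 0.30 and 0.63, which is at about the level of a few counts (adjusted p = 1.45e-04). The ligands of the pathway thus moved in both directions in the mutant lines.

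Of the 4 other receptor and co-receptor genes tested, Fgfr3 was called in HDAC1-E63R, from a mean of 13.0 to 31.0 CPM (log2 1.25, adjusted p = 1.38e-04). Fgfr3 went from 11.4 to 20.6 CPM in HDAC1-Y48E (0.85, 0.00227, under the 2-fold limit) and from 8.98 to 16.5 in HDAC1-WT (0.88, 0.0849), without overlap in any line, and no difference between lines in its OHT effect passed. Kl, a co-receptor gene with a mean of 1.28 CPM after OHT, was called in HDAC1-Y48E. None of the 8 RAF, MEK and ERK kinase genes was called in edgeR's test in either mutant. The adjusted p alone was passed by 2 in HDAC1-E63R (both lower, all genes 14.3%). In HDAC1-Y48E 4 passed it (1 higher and 3 lower, all genes 30.9%). Among 11 adaptor and RAS genes Shc1 alone was called, in HDAC1-Y48E (all genes called as lower 5.84%), where it fell by 1.17 ± 0.14 on the log2 scale (6.54e-07). Of these 11 genes 2 passed the adjusted p alone as higher and 2 as lower in HDAC1-E63R (all genes 14.3%). In HDAC1-Y48E 3 passed it as higher and 3 as lower (all genes 30.9%).

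Of 9 other feedback inhibitor genes tested, 2 were called as higher in each mutant line. Over all genes this share was 4.74% in HDAC1-E63R and 10.8% in HDAC1-Y48E. Spred3, related to the sprouty genes, was called in both (2.85 ± 0.53 in HDAC1-Y48E, 1.54e-04, and 2.1 ± 0.51 in HDAC1-E63R, 0.00430). Dusp4, whose product is a nuclear ERK phosphatase, rose by 2.46 ± 0.19 in HDAC1-E63R (6.63e-09), from 18.7, 23.5 and 27.4 CPM to 117, 133 and 135. Dusp4 was already at 129, 135 and 146 CPM in untreated HDAC1-Y48E against 5.95, 8.89 and 12.7 in untreated HDAC1-WT. Of 6 other ERK target transcription factor genes, Egr1 had the largest change in HDAC1-E63R, from 4.40, 5.71 and 6.0 CPM to 44.4, 49.4 and 54.1 (3.19 ± 0.15, 5.92e-12). Its untreated level there was below the 48.2, 49.7 and 50.2 CPM of untreated HDAC1-WT, and its level after OHT overlapped that range but lay below the 69.2, 74.6 and 79.7 CPM of HDAC1-WT after OHT. Etv1, another ETS gene, rose in HDAC1-Y48E from 2.27, 2.69 and 3.18 to 10.3, 12.5 and 14.7 CPM (2.20 ± 0.32, 7.68e-06).

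Levels of cell state markers also differed between the groups. The summed level of the 5 ESC markers was 3399 to 3543 CPM in untreated HDAC1-WT, 3529 to 3977 after OHT, 2493 to 3333 and then 2162 to 2275 in HDAC1-E63R, and 2847 to 2877 and then 1171 to 1275 in HDAC1-Y48E, where Pou5f1, Nanog and Esrrb were called as lower. The 5 formative and primed epiblast markers were at 118 to 132 and then 138 to 191 CPM in HDAC1-WT, 73.6 to 107 and then 150 to 162 in HDAC1-E63R, and 79.8 to 83.0 and then 116 to 128 in HDAC1-Y48E. The list did not move as one: Otx2 alone was called in HDAC1-E63R and Dnmt3b alone in HDAC1-Y48E, where the mean of Dnmt3b went from 41.3 to 84.4 CPM and those of Zic2 (18.4 to 9.73), Otx2 (7.11 to 5.84) and Lef1 (1.52 to 0.47) were lower after OHT, of which Zic2 passed the adjusted p. The 5 trophoblast markers were at 183 to 194 and then 191 to 216 CPM in HDAC1-WT (Cdx2 at 0 after OHT), 47.2 to 74.2 and then 138 to 141 in HDAC1-E63R, and 55.1 to 68.6 and then 74.7 to 85.3 in HDAC1-Y48E. Gata3 and Hand1 were called as higher in each mutant, while Tfap2c, which made up most of the sum, had a mean of 59.4 and then 54.1 CPM in HDAC1-Y48E. The 5 primitive endoderm markers were at 38.1 to 39.5 and then 31.4 to 39.4 CPM in HDAC1-WT, 12.4 to 20.3 and then 21.2 to 25.7 in HDAC1-E63R, and 17.1 to 23.9 and then 44.0 to 49.9 in HDAC1-Y48E. Dab2 alone was called as higher in each mutant, with means of 8.20 and then 30.3 CPM in HDAC1-Y48E, where those of Gata4 were 7.08 and 5.47 and those of Gata6 1.59 and 1.55. The 4 neural progenitor markers were at 28.6 to 29.2 and 23.3 to 33.8 CPM in HDAC1-WT (Hes5 at 0 after OHT), 49.5 to 50.3 and 41.9 to 48.6 in HDAC1-E63R, and 50.5 to 53.8 and 64.4 to 72.3 in HDAC1-Y48E, with Nes called as higher and Sox1 and Pax6 as lower in HDAC1-Y48E. The 5 fibroblast markers were at 23.4 to 25.2 and 35.9 to 41.8 CPM in HDAC1-WT (Col3a1 and Postn at 0 after OHT), 12.9 to 18.8 and 48.5 to 55.6 in HDAC1-E63R, and 23.0 to 27.1 (Postn at 0) and 81.6 to 94.2 in HDAC1-Y48E, with Col1a1 and Thy1 called as higher in each mutant. The part of these changes in the levels of Fgf4, Fgfr2 and the other members was not tested.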

How the data were processed

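RNA-seq counts of 18 libraries, 3 in each of 6 groups, were used. The deposited values are raw counts per gene symbol, made by the authors from reads mapped to mm10; the submitters' processing notes name HISAT2 2.1.0, SAMtools 1.9 and HTSeq, and the annotation and the use of strand are not given in the sources used here. All values were whole and totals differed. The 5 summary entries without a gene name held 59.4% to 61.2% of a library and were not used. The counts on genes set the precision, and a floor of 3 counts covers counting error only. The replicates are described as biological, but the labels do not say that they came from separate cultures, so p-values measure the spread between these libraries.

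The analysis used edgeR 4.0.16 (R 4.3.3): the filterByExpr filter, TMM scaling, and a quasi-likelihood fit of 18 libraries with 1 mean for each group, with Benjamini-Hochberg adjustment over the genes tested. A gene was called at an adjusted p under 0.01 and over 2-fold, or, for a difference between OHT effects, at an adjusted p under 0.01. Standard errors were the fold change over the root of F. Levels are CPM, and log2 levels used a prior count of 2. Exon lengths and shared exons came from GENCODE M21. The scripts were tested on simulated data.

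The members, the list of 65 pathway genes, the markers and the tests were chosen with earlier results of these data known. All members were named, with up to 3 called pathway genes that rose most and 3 that fell most in each mutant line (mean of at least 1 CPM), and the 3 genes most like Fgf4, Fgfr2, Dusp6 and Etv4. Fgf3, Fgfr3 and Kl were named after their values were seen. Alternatives included scaling by relative log expression, no filter on low counts, a replicate block, a model of only the lines compared, DESeq2 1.42.0, an adjusted p limit of 0.05, and leaving out each library.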

Additional observations from a re-analysis of the deposited data

Results flagged for a closer look

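For 5 members the OHT effect differed between rescue lines by a test of the difference itself (edgeR, adjusted p under 0.01). Fgf4 differed in all 3 pairs of lines, by -2.83 on the log2 scale for HDAC1-Y48E against HDAC1-WT, -1.02 for HDAC1-E63R against HDAC1-WT and -1.81 for HDAC1-Y48E against HDAC1-E63R. Fgf15 differed by -2.91 for HDAC1-Y48E against HDAC1-WT and -1.87 against HDAC1-E63R. Etv5 differed by -0.98 and -1.18 in the same pairs. Fgfr2 differed by 1.39 for HDAC1-Y48E and 1.83 for HDAC1-E63R, both against HDAC1-WT, and Spry2 by 1.50 for HDAC1-Y48E against HDAC1-WT. The differences against HDAC1-WT share its 6 libraries.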

How the results depend on the processing

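Of 1026 values recomputed for 72 results, 964 kept their direction and their side of the threshold. Relative log expression factors and the replicate block changed 1 each, Fgf15 in HDAC1-E63R, which crossed the 2-fold limit (log2 -1.01 with the block), so that 5 members were called there with the block. Deviations of same-numbered libraries had correlations from -0.02 to 0.04. The best value with a differently numbered library ran from -0.01 to 0.06. With 3 libraries per group, such small values cannot tell whether the numbers pair the samples. Without the filter on low counts 1 member, Spry4, was called in HDAC1-WT, and it was the 1 gene called there on the pathway list, which includes the members. Its log2 fold change was 1.14 with and without the filter. In edgeR's test its unadjusted p was 4.49e-04 with the filter, above the adjusted p of 1.31e-06 without it. The unadjusted p had thus changed too, and not the adjustment alone. With the filter its log2 fold change was 0.57 when HDAC1-WT OHT replicate 3 was left out. The share of all genes called without the filter is not given here. In the model of only the lines compared, 7 pathway genes were called in HDAC1-E63R in place of 11, and 1 member in place of 2 in HDAC1-E63R against HDAC1-WT, since Fgfr2 missed the limit (adjusted p = 0.0108), as did Fgf15 between the mutants (0.0102). DESeq2 added Dusp6 in HDAC1-Y48E and Fgf15 in HDAC1-E63R and in HDAC1-E63R against HDAC1-WT.

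Leaving out 1 library at a time, members called ranged from 1 to 3 for HDAC1-E63R against HDAC1-WT and from 1 to 3 for untreated HDAC1-Y48E against HDAC1-WT, where the low value came without HDAC1-WT untreated replicate 2. All 30 changes of direction came from leaving out a library and concerned values near 0 that did not pass. In HDAC1-WT the log2 fold change ranged from -0.0082 to 0.11 for Fgf15, -0.058 to 0.14 for Fgfr1, -0.063 to 0.42 for Spry2 and -0.076 to 0.21 for Etv4, and in HDAC1-Y48E from -0.050 to 0.12 for Fgfr1. For HDAC1-Y48E against HDAC1-WT the difference ranged from -0.19 to 0.60 for Spry4, -0.10 to 0.10 for Fgfr1 and -0.038 to 0.30 for Etv4. For HDAC1-E63R against HDAC1-WT it ranged from -0.034 to 0.76 for Spry4 and -0.072 to 0.21 for Etv4, and between the mutants from -0.32 to 0.042 for Spry4 and -0.075 to 0.26 for Etv4. For untreated HDAC1-Y48E against HDAC1-WT Etv4 ranged from -0.039 to 0.30. The cause of these changes was not tested.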
